A study of Mus musculus with 18 samples.

Results

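The 9 genes described here encode the chemokine receptors Cxcr3, Cxcr4, Cxcr5, Cxcr6, Ccr2, Ccr4, Ccr6, Ccr9 and Cx3cr1, measured in T cells sorted from mouse bone marrow. They were chosen by symbol, as the rows of the count tables that carry these 9 names among the 23930 genes of the panel. All 9 were found in both tables and all 9 passed the filter on low counts, which kept 11316 genes in all. The 6 groups compared held 3 libraries each and came from 3 kinds of mice and 2 T cell types. The pMT-10 plus zinc mice carry an interleukin-10 (IL-10) transgene that zinc switches on, and they drank water with added zinc for 30 days. The pMT-10 without zinc mice carry the same transgene and drank control water. The C57BL/6 plus zinc mice are wild type and drank the zinc water for the same 30 days. CD4 and CD8 T cells were isolated from each kind by fluorescence-activated cell sorting, and the labels do not name the cells that express the transgene or the age of the mice. RNA was read with an Ion AmpliSeq panel, in which 1 amplicon stands for 1 gene, so levels are given as CPM, the counts of a gene scaled to a common library size, and were compared between libraries but not between genes.

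Libraries held 10546798 to 18519474 counts. Il10 was at 26.0, 16.6 and 20.9 CPM in the CD4 libraries of pMT-10 plus zinc mice, against 1.40 to 3.62 CPM in pMT-10 without zinc and 3.01 to 8.25 CPM in C57BL/6 plus zinc. In CD8 cells it was at 3.20 to 22.4 CPM in pMT-10 plus zinc and at 0 in all 6 control libraries. Cd4 and Zbtb7b together summed to 2.63 to 5.93, 2.24 to 6.41 and 4.67 to 8.57 CPM in the CD8 libraries of the 3 kinds, against at least 1830 CPM in every CD4 library, so these genes separated the libraries as labelled. The 12 libraries from zinc-fed mice were run on 1 chip and the 6 from pMT-10 without zinc on another, so zinc, the induced transgene and the chip cannot be told apart in the comparison within the transgenic line. The Y-linked Ddx3y was at 110 to 206 CPM in C57BL/6 libraries and at most 0.682 CPM in pMT-10 libraries, so the sex of the mice differs along with the line in every comparison with C57BL/6. Cxcr3 lies on the X chromosome, and the part of sex in its values was not tested. These are bulk libraries, in which fewer cells of a type and less RNA per cell cannot be told apart.

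Chemokine receptors are G protein-coupled receptors that steer leukocytes along gradients of small secreted chemokines, and each T cell subset carries its own combination. In the marrow, CXCR4 binds CXCL12 made by stromal cells and keeps haematopoietic and memory T cells in place, while receptors such as CXCR3 and CCR2 guide activated cells towards inflamed tissue. CCR9 is known for homing to the thymus and small intestine, CCR4 and CCR6 for skin and barrier homing and for regulatory and helper subsets, and CXCR5 for entry into B cell follicles.

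The results turn on Cxcr4 and on 3 receptor genes that lie close together on chromosome 9, namely Ccr9, Cxcr6 and Ccr2, whose changes had different directions. Their RefSeq promoter windows in GRCm38.p6 are shown so that these neighbours can be compared; each runs from 250 bases before to 50 bases after the start site, 5′ to 3′ on the gene's own strand. Capitals mark matches to 4 motifs searched on both strands, which are the KLF core CACCC, the RUNX core TGTGGT, the T-box core TCACACC and the STAT element TTCNNNGAA.

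Cxcr4, chr1:128592250-128592549, minus strand: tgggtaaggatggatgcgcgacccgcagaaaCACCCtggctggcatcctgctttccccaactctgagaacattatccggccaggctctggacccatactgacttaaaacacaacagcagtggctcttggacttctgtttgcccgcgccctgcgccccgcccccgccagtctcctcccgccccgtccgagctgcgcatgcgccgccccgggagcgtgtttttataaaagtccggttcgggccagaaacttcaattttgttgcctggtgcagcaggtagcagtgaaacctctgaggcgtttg

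Ccr9, chr9:123766961-123767260, plus strand: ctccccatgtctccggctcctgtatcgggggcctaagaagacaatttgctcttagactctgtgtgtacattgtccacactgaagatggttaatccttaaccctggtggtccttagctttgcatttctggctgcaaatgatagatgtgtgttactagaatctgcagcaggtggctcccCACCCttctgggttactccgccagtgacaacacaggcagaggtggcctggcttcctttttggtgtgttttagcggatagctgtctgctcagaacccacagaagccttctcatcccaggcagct

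Cxcr6, chr9:123806227-123806526, plus strand: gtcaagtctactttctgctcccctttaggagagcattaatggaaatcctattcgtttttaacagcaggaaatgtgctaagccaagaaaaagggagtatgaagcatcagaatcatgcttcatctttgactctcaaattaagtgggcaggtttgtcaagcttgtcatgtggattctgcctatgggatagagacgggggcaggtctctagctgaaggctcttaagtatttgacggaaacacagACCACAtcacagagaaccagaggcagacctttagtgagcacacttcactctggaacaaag

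Ccr2, chr9:124101933-124102232, plus strand: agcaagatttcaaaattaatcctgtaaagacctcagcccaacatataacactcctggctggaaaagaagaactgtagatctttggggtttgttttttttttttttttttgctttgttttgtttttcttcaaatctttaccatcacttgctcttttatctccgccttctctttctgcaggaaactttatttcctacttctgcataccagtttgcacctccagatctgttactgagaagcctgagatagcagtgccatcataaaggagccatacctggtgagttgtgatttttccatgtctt

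The Cxcr4 window held 1 CACCC, 219 to 215 bases before the start site, and the Ccr9 window held 1 CACCC, 73 to 69 bases before it. The Cxcr6 window held 1 RUNX core on the reverse strand, 10 to 5 bases before the start site, and the Ccr2 window held none of the 4 motifs. Among 32851 windows of the same length, 57.5% hold CACCC, 16.8% hold TGTGGT, 3.98% hold TCACACC and 8.30% hold TTCNNNGAA on either strand. A window was found for 8 of the 9 genes. Of the others, Ccr4 held 1 CACCC match, Cx3cr1 held 2 and a RUNX core, Cxcr3 held 2 RUNX cores, and the first of 2 Ccr6 windows held 2 TTCNNNGAA matches and a RUNX core. These matches describe the letters only.

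Cxcr4 was lower in pMT-10 plus zinc cells of both types. In CD4 libraries it was at 73.6, 121 and 76.4 CPM in pMT-10 plus zinc, at 263, 242 and 160 CPM in pMT-10 without zinc, and at 189, 180 and 197 CPM in C57BL/6 plus zinc. In CD8 libraries it was at 107, 111 and 84.4 CPM in pMT-10 plus zinc, at 259, 299 and 213 CPM in pMT-10 without zinc, and at 168, 200 and 189 CPM in C57BL/6 plus zinc. Every one of the 6 pMT-10 plus zinc libraries lay below every one of the 12 control libraries. By edgeR's quasi-likelihood test with Benjamini-Hochberg adjustment over all 11316 genes, the log2 fold change in CD4 cells was -1.07 (SE 0.20, adjusted p = 0.000476) against C57BL/6 plus zinc and -1.30 (SE 0.20, adjusted p = 6.21e-05) against pMT-10 without zinc. In CD8 cells it was -0.88 (SE 0.19, adjusted p = 0.00542) and -1.35 (SE 0.20, adjusted p = 9.22e-05). No alternative setting ended any of these 4 calls. The level did not differ detectably between cell types, with CD8 minus CD4 log2 differences of 0.16 in pMT-10 plus zinc (95% interval -0.22 to 0.54), 0.21 in pMT-10 without zinc (-0.16 to 0.59) and -0.02 in C57BL/6 plus zinc (-0.40 to 0.35). Cxcl12, the ligand of CXCR4, was at most 1.2 CPM in any library.

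Ccr9 was lower as well, on a level that differed widely between the cell types. Its CD8 libraries held 29.9, 19.7 and 18.4 CPM in pMT-10 plus zinc, 78.0, 51.8 and 82.7 CPM in pMT-10 without zinc, and 87.5, 53.7 and 79.6 CPM in C57BL/6 plus zinc. The pMT-10 plus zinc libraries lay below all 6 controls, which overlapped each other, and the log2 fold change was -1.70 (SE 0.33, adjusted p = 0.00208) against C57BL/6 plus zinc and -1.65 (SE 0.33, adjusted p = 0.0028) against pMT-10 without zinc. In CD4 libraries the gene was near the bottom of the scale, at 0.848, 4.07 and 0.974 CPM in pMT-10 plus zinc, 7.23, 8.26 and 7.82 CPM in pMT-10 without zinc, and 5.31, 7.10 and 4.71 CPM in C57BL/6 plus zinc. Here replicate 2 of pMT-10 plus zinc stood well above replicates 1 and 3, though below every control library. The CD4 log2 fold change was -1.60 (SE 0.41, adjusted p = 0.0089) against C57BL/6 plus zinc and -2.05 (SE 0.40, adjusted p = 0.00101) against pMT-10 without zinc. Without replicate 2 the ratio of mean CPM to C57BL/6 plus zinc was 0.16, against 0.344 with it, and that to pMT-10 without zinc was 0.117, against 0.253. Without pMT-10 plus zinc replicate 1 or 3, the comparison with C57BL/6 plus zinc missed the threshold; its adjusted p ran from 3.49e-07 to 0.0689 over 12 alternatives. Plasmacytoid dendritic cells also carry CCR9, and their marker Siglech was at most 0.775 CPM in any library, while 7 dendritic cell genes summed to 79.2 to 126 CPM in CD4 libraries of pMT-10 plus zinc, 136 to 167 CPM in pMT-10 without zinc and 121 to 143 CPM in C57BL/6 plus zinc. In CD8 libraries that sum was 160 to 227, 126 to 162 and 148 to 229 CPM in the same order of groups. Most of the sum was Bst2, at a mean of 95.5 CPM in pMT-10 plus zinc and 122 CPM in C57BL/6 plus zinc CD4 cells. In CD8 cells of these groups Bst2 averaged 183 and 173 CPM, and Xcr1 and Clec9a were at 0 in every CD8 library.

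**Figure D1:**
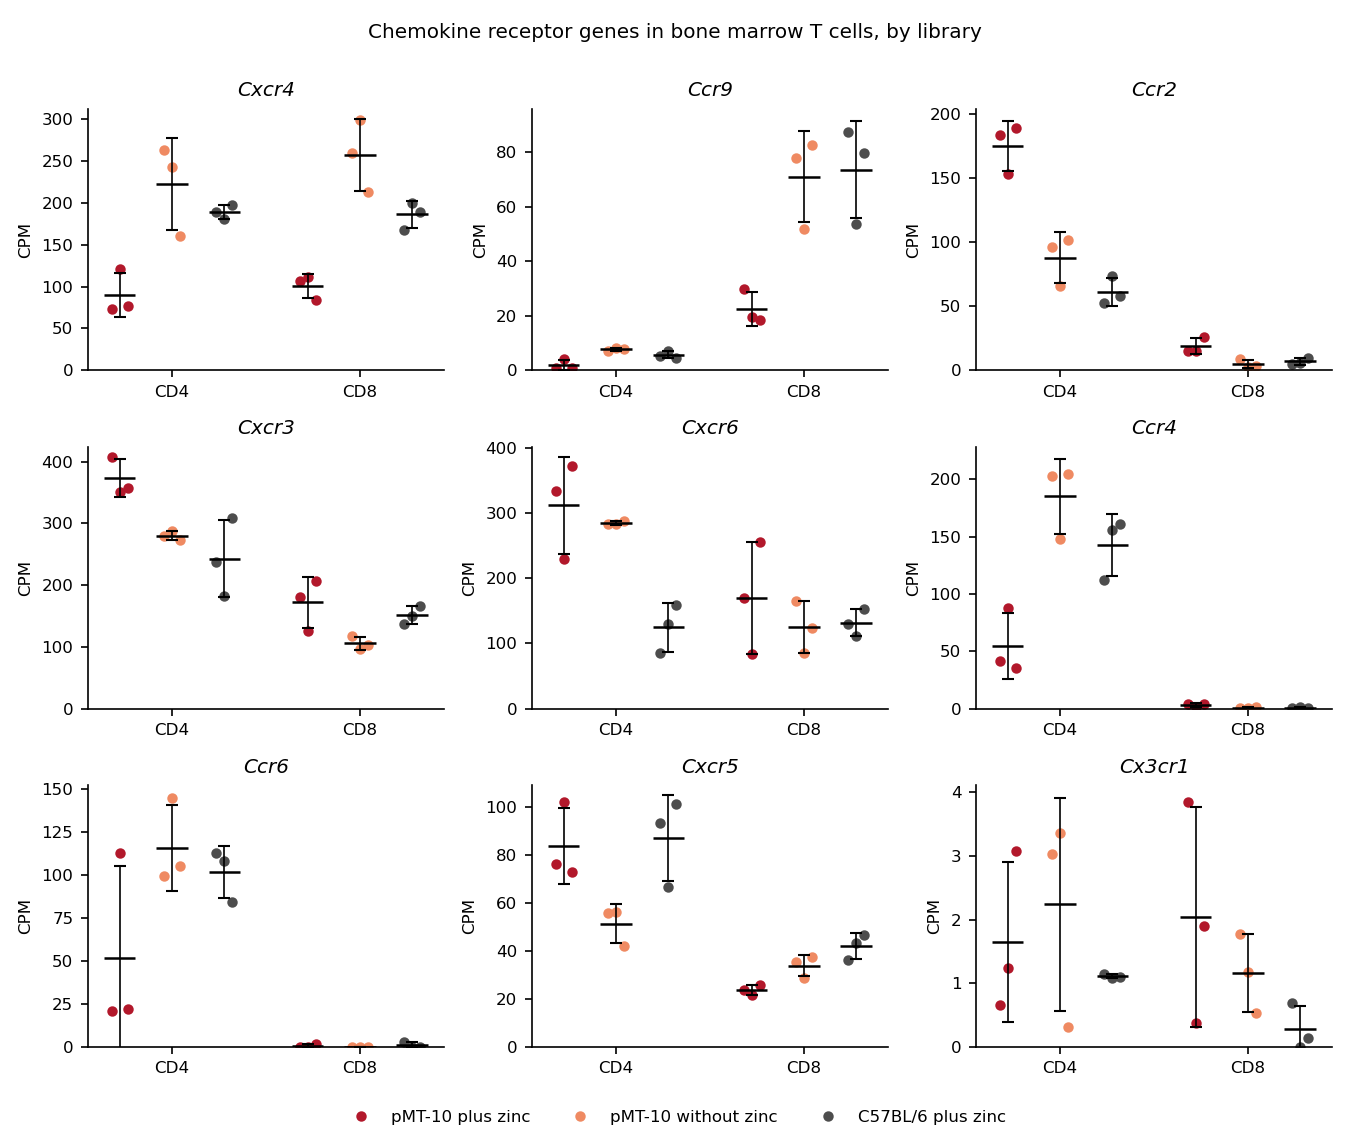
Levels of the 9 receptor genes in CPM, on linear axes that start at 0, for each of the 18 libraries; points are libraries, horizontal lines are group means and vertical bars are ± 1 SD (n = 3). Cxcr4 and Ccr9 are lowest, within each cell type, in pMT-10 plus zinc, Ccr2 is highest there, and replicate 2 of the pMT-10 plus zinc CD4 cells stands apart for Ccr6 at 113 CPM.

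Among the receptors of inflamed tissue, Ccr2 was higher in pMT-10 plus zinc cells of both types. CCR2 binds CCL2 and related chemokines and is carried by inflammatory monocytes and by effector memory T cells. Its CD4 libraries held 184, 153 and 189 CPM in pMT-10 plus zinc, 96.5, 65.6 and 102 CPM in pMT-10 without zinc, and 52.4, 73.6 and 58.3 CPM in C57BL/6 plus zinc. Its CD8 libraries held 15.3, 15.4 and 26.4 CPM in pMT-10 plus zinc, 8.52, 3.02 and 3.18 CPM in pMT-10 without zinc, and 5.14, 5.89 and 9.97 CPM in C57BL/6 plus zinc. All pMT-10 plus zinc libraries lay above all controls of their cell type. The log2 fold change in CD4 cells was 1.51 (SE 0.30, adjusted p = 0.00124) against C57BL/6 plus zinc and 0.99 (SE 0.30, adjusted p = 0.0231) against pMT-10 without zinc. In CD8 cells it was 1.43 (SE 0.33, adjusted p = 0.00878) and 1.94 (SE 0.34, adjusted p = 0.000761). The calls against C57BL/6 plus zinc in CD8 cells and against pMT-10 without zinc in CD4 cells were less stable. The first was lost without pMT-10 plus zinc replicate 3 or with the CD8 libraries fitted alone (adjusted p from 7.16e-10 to 0.0586 over 12 alternatives). The second was lost without pMT-10 plus zinc replicate 1 or 3 or pMT-10 without zinc replicate 1 or 2 (adjusted p from 3.31e-06 to 0.117). Leaving out pMT-10 without zinc replicate 1 in CD8 cells raised the ratio of mean CPM to 6.14, against 3.88 with it.

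Monocyte genes moved with Ccr2 in part. The 8 monocyte and macrophage genes of the panel list summed to 42.0 to 50.5 CPM in CD4 libraries of pMT-10 plus zinc, 28.5 to 52.1 CPM in pMT-10 without zinc and 29.8 to 46.2 CPM in C57BL/6 plus zinc, with overlap between the groups. In CD8 libraries they summed to 17.7 to 36.6, 11.8 to 19.5 and 11.4 to 17.0 CPM in the same order, above C57BL/6 plus zinc and overlapping pMT-10 without zinc, with Fcgr1, Adgre1 and Cybb at 0 in all 3 libraries there. Of these genes Cd68 passed the test in CD4 cells (25.1 ± 4.56 CPM in pMT-10 plus zinc, against 7.6 ± 2.12 CPM in C57BL/6 plus zinc; SD, n = 3), while Lyz2, the lysozyme gene of myeloid cells, was at most 2.85 CPM in any library. Cybb ran the other way in CD4 cells, at 17.8 ± 3.48 CPM in pMT-10 plus zinc and 27.2 ± 8.7 CPM in C57BL/6 plus zinc. It did not pass (log2 fold change -0.61, edgeR adjusted p = 0.242). The part of these monocyte genes in the Ccr2 values was not tested. Ccr2 shared 3.41% of the distinct 31-base words in its GENCODE transcripts with other genes, and reads shared in this way were not tested because the position of the amplicons was not used here. Ccr9 shared 3.12% of its words, Cx3cr1, Ccr4 and Ccr6 1.75% or less, and the 4 CXC receptors none.

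Cxcr3, the receptor for the interferon-induced chemokines CXCL9, CXCL10 and CXCL11, had smaller differences that passed against 1 control in each cell type. CD4 libraries held 408, 351 and 358 CPM in pMT-10 plus zinc, 279, 288 and 273 CPM in pMT-10 without zinc, and 237, 183 and 308 CPM in C57BL/6 plus zinc. CD8 libraries held 181, 126 and 207 CPM in pMT-10 plus zinc, 117, 97.2 and 103 CPM in pMT-10 without zinc, and 137, 150 and 166 CPM in C57BL/6 plus zinc. In CD4 cells pMT-10 plus zinc lay above both controls, which overlapped each other, whereas in CD8 cells its range enclosed that of C57BL/6 plus zinc. In CD4 cells the log2 fold change was 0.62 (SE 0.17, adjusted p = 0.0149) against C57BL/6 plus zinc, and 0.41 against pMT-10 without zinc (95% interval 0.07 to 0.75, adjusted p = 0.104). In CD8 cells it was 0.70 (SE 0.17, adjusted p = 0.015) against pMT-10 without zinc, and 0.18 against C57BL/6 plus zinc (95% interval -0.16 to 0.52, adjusted p = 0.592). Leaving out C57BL/6 plus zinc replicate 1 or 2 or pMT-10 plus zinc replicate 1 ended the CD4 call (adjusted p from 0.00179 to 0.108 over 12 alternatives), and 4 of the 6 libraries, left out in turn, ended the CD8 call (from 0.000966 to 0.104).

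Cxcr6, the receptor for CXCL16 on liver-resident and innate-like T cells, was split between the controls. In CD4 cells it was at 334, 229 and 372 CPM in pMT-10 plus zinc, 284, 283 and 288 CPM in pMT-10 without zinc, and 84.6, 130 and 159 CPM in C57BL/6 plus zinc. Both pMT-10 groups lay above C57BL/6 plus zinc and overlapped each other. The log2 fold change of pMT-10 plus zinc was 1.32 (SE 0.32, adjusted p = 0.00678) against C57BL/6 plus zinc and 0.13 (95% interval -0.49 to 0.74, adjusted p = 0.827) against pMT-10 without zinc. Genes of innate-like cells differed in level between these groups: 4 genes of gamma-delta and innate-like T cells summed to less than 2 CPM in each library of pMT-10 plus zinc, 14.3 to 19.7 CPM in pMT-10 without zinc and 3.32 to 9.58 CPM in C57BL/6 plus zinc. The NK receptor gene Klrb1c was at 4.79 to 15 CPM, 163 to 184 CPM and 36.7 to 45.8 CPM in the same order. Their part in the Cxcr6 level of any of these groups was not tested. In CD8 cells Cxcr6 varied about as much within as between groups, at 169, 84.0 and 256 CPM in pMT-10 plus zinc, 165, 85.5 and 124 CPM in pMT-10 without zinc, and 130, 112 and 153 CPM in C57BL/6 plus zinc, and neither comparison passed. Cxcr6 lies inside the span of Fyco1 on the opposite strand, and Fyco1 did not pass in any of these 4 comparisons, with group means between 60.1 and 77.4 CPM.

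Ccr4 moved in opposite directions in the 2 cell types. CCR4 binds CCL17 and CCL22 and is carried by regulatory and type 2 helper T cells. In CD4 cells Ccr4 was at 41.2, 87.9 and 35.5 CPM in pMT-10 plus zinc, 203, 148 and 205 CPM in pMT-10 without zinc, and 112, 156 and 161 CPM in C57BL/6 plus zinc. The pMT-10 plus zinc libraries were all lower, with replicate 2 the nearest to the controls. The log2 fold change was -1.38 (SE 0.32, adjusted p = 0.00444) against C57BL/6 plus zinc and -1.76 (SE 0.32, adjusted p = 0.000653) against pMT-10 without zinc. In CD8 cells the gene was scarce, at 4.01, 1.03 and 4.24 CPM in pMT-10 plus zinc, 0.852, 0.780 and 1.22 CPM in pMT-10 without zinc, and 0.429, 1.12 and 0.602 CPM in C57BL/6 plus zinc. Of the 3 pMT-10 plus zinc libraries 2 were above every control and replicate 2 lay among them. The log2 fold change was 2.16 (SE 0.55, adjusted p = 0.0175) against C57BL/6 plus zinc and 1.68 (SE 0.50, adjusted p = 0.044) against pMT-10 without zinc. Both CD8 calls were lost with the CD8 libraries fitted alone and without pMT-10 plus zinc replicate 1 or 3. The first was also lost without C57BL/6 plus zinc replicate 1 or 3, and the second without any 1 of the pMT-10 without zinc replicates. Over 12 alternatives each, the adjusted p ran from 1.11e-09 to 0.135 against C57BL/6 plus zinc and from 4.68e-07 to 0.257 against pMT-10 without zinc.

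The difference between the cell types was itself tested. The CD8 minus CD4 difference of the log2 fold changes was 3.54 for Ccr4 against C57BL/6 plus zinc (SE 0.63, adjusted p = 0.00357) and 3.44 against pMT-10 without zinc (SE 0.59, adjusted p = 0.00309), and neither call was lost under 17 alternatives. Of the 9 genes 1 passed this test against C57BL/6 plus zinc, namely Ccr4, and 2 passed it against pMT-10 without zinc, the second being Cxcr5 (-1.22, SE 0.26, adjusted p = 0.0133). Across all genes, 3.41% had a higher and 2.08% a lower difference in CD8 than in CD4 cells against C57BL/6 plus zinc, and 2.44% and 1.34% against pMT-10 without zinc.

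Ccr6, the receptor for CCL20 on type 17 helper and regulatory T cells, did not pass any comparison between kinds of mice by edgeR's test. In CD4 cells it was at 20.7, 113 and 21.9 CPM in pMT-10 plus zinc, 99.2, 145 and 105 CPM in pMT-10 without zinc, and 113, 108 and 84.3 CPM in C57BL/6 plus zinc. In pMT-10 plus zinc 2 libraries were well below all controls and replicate 2 was level with them. The log2 fold change was -0.98 (SE 0.79, adjusted p = 0.445) against C57BL/6 plus zinc and -1.17 (SE 0.79, adjusted p = 0.352) against pMT-10 without zinc. Without replicate 2 the ratio of means was 0.209 against C57BL/6 plus zinc, where it was 0.511 with it, and 0.183 against pMT-10 without zinc, where it was 0.447. In the second case the difference then passed the test. With no filter beyond 1 count both passed, and over 12 alternatives the adjusted p ran from 2.88e-05 to 0.762 against C57BL/6 plus zinc and from 1.46e-07 to 0.709 against pMT-10 without zinc. In CD8 cells Ccr6 held 0, 0 and 22 counts in pMT-10 plus zinc, none in the 3 pMT-10 without zinc libraries, and 35, 1 and 0 counts in C57BL/6 plus zinc, too few to compare.

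Of 6 regulatory T cell genes, 4 (Ctla4, Ikzf2, Nrp1 and Gpr83) were lower in pMT-10 plus zinc CD4 cells against both controls. The share of all genes lower against both was 7.01%. Ctla4, an inhibitory receptor, averaged 90.2 ± 10.3 CPM in pMT-10 plus zinc, against 229 ± 11 CPM in pMT-10 without zinc (SD, n = 3; log2 fold change -1.35, adjusted p = 0.000939) and 215 ± 53.7 CPM in C57BL/6 plus zinc (-1.25, adjusted p = 0.00177). Foxp3 and Il2ra, which encodes the alpha chain of the interleukin-2 receptor, did not pass (adjusted p = 0.196 and 0.127 against pMT-10 without zinc, and 0.151 and 0.102 against C57BL/6 plus zinc). The 6 genes summed to 1040 to 1970 CPM in pMT-10 plus zinc, 2410 to 2870 CPM in pMT-10 without zinc and 2780 to 2850 CPM in C57BL/6 plus zinc. Foxp3, the factor that defines these cells, was at 858, 1290 and 735 CPM in pMT-10 plus zinc, against 1320 to 1700 CPM in pMT-10 without zinc and 1620 to 1720 CPM in C57BL/6 plus zinc, with replicate 2 again the highest of its group. Whether the share of regulatory cells took part in the Ccr4 and Ccr6 values was not tested.

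Cxcr5, the follicle-homing receptor for CXCL13, differed by cell type. CD4 libraries held 76.1, 102 and 72.6 CPM in pMT-10 plus zinc, 55.7, 56.2 and 41.8 CPM in pMT-10 without zinc, and 93.2, 66.6 and 101 CPM in C57BL/6 plus zinc. There pMT-10 plus zinc overlapped C57BL/6 plus zinc (log2 fold change -0.06, 95% interval -0.42 to 0.30) and lay above pMT-10 without zinc (0.70, SE 0.18, adjusted p = 0.00933). That call was lost without pMT-10 plus zinc replicate 2 or pMT-10 without zinc replicate 3 (adjusted p from 0.00146 to 0.0635 over 12 alternatives). CD8 libraries held 23.7, 21.4 and 25.8 CPM in pMT-10 plus zinc, 35.4, 28.8 and 37.3 CPM in pMT-10 without zinc, and 36.1, 43.0 and 46.6 CPM in C57BL/6 plus zinc. The pMT-10 plus zinc libraries lay below every control library, and the controls overlapped each other. The log2 fold change was -0.82 (SE 0.19, adjusted p = 0.00751) against C57BL/6 plus zinc, and -0.52 (95% interval -0.89 to -0.15, adjusted p = 0.102) against pMT-10 without zinc. B cells carry CXCR5 too; 7 B cell genes summed to 6.59 to 22.1 CPM in CD4 libraries of pMT-10 plus zinc, 30.0 to 37.3 CPM in pMT-10 without zinc and 26.9 to 32.4 CPM in C57BL/6 plus zinc. In CD8 libraries they summed to 25.7 to 45.9, 34.1 to 57.8 and 43.4 to 53.1 CPM in the same order, and Pax5 was at 0 in all 18 libraries. The part of B cell RNA was not tested.

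Cx3cr1, the fractalkine receptor of cytotoxic effector T cells and monocytes, stayed below 4 CPM. It was at 0.653, 1.24 and 3.07 CPM in pMT-10 plus zinc CD4 cells and at 3.84, 0.376 and 1.90 CPM in pMT-10 plus zinc CD8 cells, ranges that overlapped the controls. It was at 0.318 to 3.36 CPM in pMT-10 without zinc and 1.08 to 1.14 CPM in C57BL/6 plus zinc CD4 cells, and at 0.53 to 1.77 CPM and 0 to 0.686 CPM in the CD8 cells of these controls. The largest difference, a log2 fold change of 2.87 (SE 1.10, adjusted p = 0.109) in CD8 cells against C57BL/6 plus zinc, did not pass, and its adjusted p ran from 0.047 to 0.353 over 12 alternatives, passing with DESeq2 and without C57BL/6 plus zinc replicate 1. Its ratio of mean CPM was 7.46, and 30.5 without C57BL/6 plus zinc CD8 replicate 1 and 4.17 without pMT-10 plus zinc CD8 replicate 1.

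**Figure D2:**
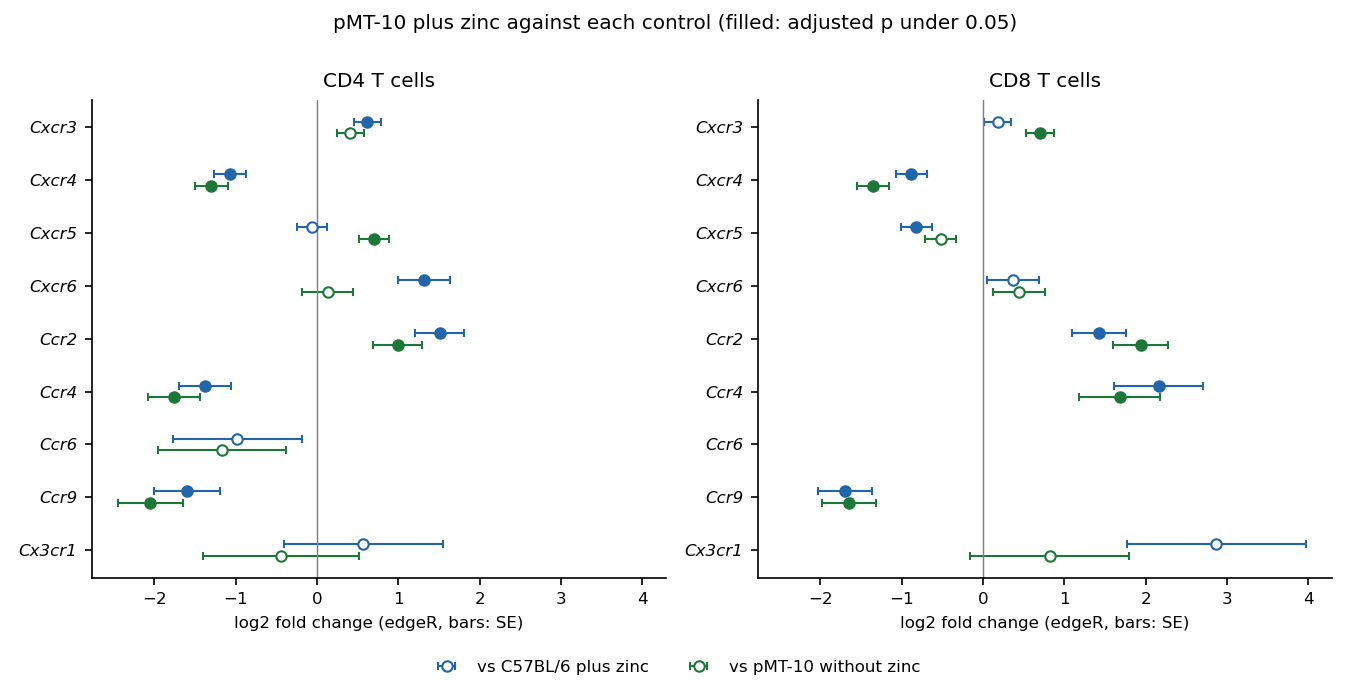
Log2 fold changes of pMT-10 plus zinc against C57BL/6 plus zinc (blue) and against pMT-10 without zinc (green) in CD4 and CD8 T cells, with SE bars from edgeR; filled points passed an adjusted p under 0.05. Cxcr4 and Ccr9 lie left of 0 and Ccr2 right of 0 in all 4 comparisons, and Ccr4 lies on opposite sides in the 2 cell types; Ccr6 in CD8 cells is not drawn because its counts were too few.

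Counted together, 6 of the 9 genes passed in CD4 cells against C57BL/6 plus zinc, 3 higher (Ccr2, Cxcr6, Cxcr3) and 3 lower (Ccr9, Ccr4, Cxcr4), where 9.29% of all genes were higher and 9.40% lower. Against pMT-10 without zinc 2 were higher (Ccr2, Cxcr5) and 3 lower (Ccr9, Ccr4, Cxcr4), beside 9.38% and 9.40% of all genes. In CD8 cells 2 were higher (Ccr4, Ccr2) and 3 lower (Ccr9, Cxcr4, Cxcr5) against C57BL/6 plus zinc, beside 5.68% and 3.13%. Against pMT-10 without zinc 3 were higher (Ccr2, Ccr4, Cxcr3) and 2 lower (Ccr9, Cxcr4), beside 5.10% and 2.64%. The median log2 fold change of the 9 genes was -0.06 in CD4 and 0.18 in CD8 cells against C57BL/6 plus zinc, where the medians of all genes were -0.05 and 0.00. The pairs of comparisons share their pMT-10 plus zinc libraries, so their counts are not independent. Against both controls at once, Ccr2 was higher and Cxcr4, Ccr4 and Ccr9 lower in CD4 cells, beside 7.20% and 7.01% of all genes. Ccr2 and Ccr4 were higher and Cxcr4 and Ccr9 lower against both in CD8 cells, beside 3.68% and 1.57%.

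The 2 control kinds were also set against each other, pMT-10 without zinc against C57BL/6 plus zinc. Line, sex, zinc and chip all differ between them and cannot be told apart. None of the 9 genes passed edgeR's test in CD4 or CD8 cells, where 0.0795% and 0.0619% of all genes in CD4 cells and 0.0265% and 0.0707% in CD8 cells were called higher and lower. At an unadjusted p under 0.05, Cxcr5 and Cxcr6 stood out in CD4 cells and Cxcr3 and Cxcr4 in CD8 cells, beside 4.43% and 6.34% of all genes. DESeq2 called 1 of the 9 in CD4 cells, Cxcr5, and 0 in CD8 cells. The log2 difference was 1.19 for Cxcr6 in CD4 cells (95% interval 0.57 to 1.82, edgeR adjusted p = 0.376, from 3.93e-10 to 1 over 12 alternatives), with 284, 283 and 288 CPM in pMT-10 without zinc, all above the 84.6 to 159 CPM of C57BL/6 plus zinc. For Cxcr5 it was -0.76 (95% interval -1.12 to -0.40, adjusted p = 0.197, from 0.0249 to 0.9 over 12 alternatives).

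The cell types were compared within each kind of mouse, CD8 over CD4. Ccr4, Ccr2, Ccr6, Cxcr5 and Cxcr3 were lower and Ccr9 was higher in CD8 cells in each of the 3 kinds. Ccr4 had a wide gap in the controls: it averaged 0.95 ± 0.235 CPM in CD8 and 185 ± 32.3 CPM in CD4 cells of pMT-10 without zinc, and 0.717 ± 0.36 CPM in CD8 and 143 ± 27.1 CPM in CD4 cells of C57BL/6 plus zinc (SD, n = 3). The log2 differences were -7.55 (SE 0.46, adjusted p = 7.59e-10) and -7.65 (SE 0.48, adjusted p = 1.05e-09). In pMT-10 plus zinc the gap was narrower, at 3.10 ± 1.79 CPM in CD8 and 54.9 ± 28.8 CPM in CD4 cells (-4.11, SE 0.39, adjusted p = 2.79e-07), which is the difference tested above.

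Ccr6 was at least 1750-fold lower in CD8 than in CD4 cells of pMT-10 without zinc, with the CD8 group set at the 3 counts that a count of 0 over the group allows. Its mean was 0.0103 and 0.0101 of the CD4 level in pMT-10 plus zinc and C57BL/6 plus zinc (adjusted p = 0.00179 and 0.00112). Without pMT-10 plus zinc CD4 replicate 2 the first was 0.0252, and its CD8 level comes from replicate 3 alone, at 22 counts, without which that CD8 group is at 0. Without C57BL/6 plus zinc CD8 replicate 1 the second was 0.000459. Ccr2 was lower in CD8 cells by 3.20, 4.15 and 3.12 on the log2 scale in pMT-10 plus zinc, pMT-10 without zinc and C57BL/6 plus zinc (SE 0.32 to 0.35). Ccr9 was higher in CD8 cells by 3.58, 3.19 and 3.69 (SE 0.35 to 0.40), although the first ratio of means, 11.5, became 24.8 without pMT-10 plus zinc CD4 replicate 2. The Ccr2 ratio in pMT-10 without zinc was 0.0557, and 0.0352 without CD8 replicate 1.

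Smaller gaps were those of Cxcr5, at -1.82, -0.60 and -1.05, and Cxcr3, at -1.12, -1.40 and -0.68, in the same order of mice. The Cxcr5 call in pMT-10 without zinc was lost without CD4 replicate 1 or 2 or CD8 replicate 2 (adjusted p 0.024, from 0.0102 to 0.11 over 12 alternatives). The Cxcr3 call in C57BL/6 plus zinc was lost without CD4 replicate 3 (adjusted p 0.00681, from 0.000504 to 0.0635). Cxcr6 was lower in CD8 cells of the transgenic line, by 0.88 (SE 0.32, adjusted p = 0.0472) in pMT-10 plus zinc and by 1.19 (SE 0.32, adjusted p = 0.0119) in pMT-10 without zinc, and its log2 difference was 0.08 (95% interval -0.54 to 0.70) in C57BL/6 plus zinc. Whether these 3 values differ among themselves was tested only against pMT-10 plus zinc, where neither test passed. The call in pMT-10 plus zinc was lost under 6 of 12 alternatives (adjusted p from 1.55e-06 to 0.187), namely library size scaling, a fit of those mice alone, and leaving out CD4 replicate 1 or 3 or CD8 replicate 1 or 2. That in pMT-10 without zinc was lost without CD8 replicate 2 (from 2.19e-11 to 0.0718). In all, 1 gene was higher and 6 lower in CD8 cells of pMT-10 plus zinc (13.4% and 14.7% of all genes), 1 and 6 in pMT-10 without zinc (8.94% and 12.8%), and 1 and 5 in C57BL/6 plus zinc (9.28% and 12.9%).

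**Figure D3:**
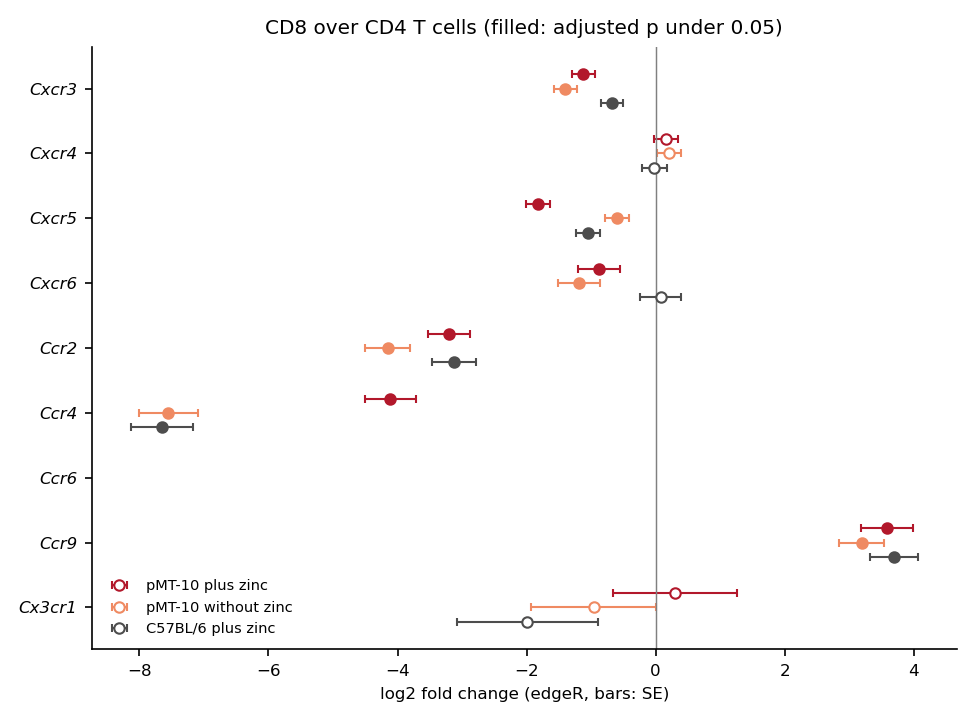
Log2 fold changes of CD8 over CD4 T cells within each kind of mouse, with SE bars from edgeR; filled points passed an adjusted p under 0.05, and Ccr6 is not drawn because its CD8 counts were at or near 0. Ccr9 lies right of 0 at 3.19 to 3.69, and the point of Ccr4 in pMT-10 plus zinc, at -4.11, lies right of its controls at -7.55 and -7.65.

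Of 15 other chemokine receptors looked for, 14 were in the panel and 8 passed the count filter. Ccr7, the receptor that takes naive and central memory cells into lymph nodes, was lower in pMT-10 plus zinc CD4 cells, at 97.2, 354 and 62.2 CPM, against 547 to 621 CPM in pMT-10 without zinc and 678 to 1140 CPM in C57BL/6 plus zinc (log2 fold change -1.78, adjusted p = 0.0122, and -2.40, adjusted p = 0.00194). Its ratio of mean CPM to these controls was 0.292 and 0.19, and 0.136 and 0.0884 without pMT-10 plus zinc CD4 replicate 2. In CD8 cells its log2 fold change was -0.46 (95% interval -1.33 to 0.40) against C57BL/6 plus zinc. Ccrl2, an atypical receptor, was higher in pMT-10 plus zinc CD8 cells at 3.33, 2.45 and 12.7 CPM, against 0.328 to 1.76 CPM in pMT-10 without zinc and 0.201 to 1.31 CPM in C57BL/6 plus zinc. Its ratios of mean CPM, 6.40 and 7.52, were 3.01 and 3.53 without pMT-10 plus zinc CD8 replicate 3, and the first was 11 without pMT-10 without zinc CD8 replicate 2. Of 15 ligand genes of the 9 receptors 4 passed the count filter. In these 4 comparisons 1 call was made among them, Cx3cl1 in CD4 cells, at 0 in the 3 pMT-10 plus zinc libraries. It was called against pMT-10 without zinc, where 9.40% of all genes were lower.

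Of 15 tested receptors for adhesion and egress, 2 were higher and 7 lower in pMT-10 plus zinc CD4 cells against either control. The shares of all genes were 9.29% and 9.40% against C57BL/6 plus zinc, and 9.38% and 9.40% against pMT-10 without zinc. Among those called, Gpr15, S1pr1 and Ltb4r1 had the largest differences. Gpr15, a receptor for homing to the large intestine, averaged 2.58 ± 1.49 CPM in pMT-10 plus zinc and 32.6 ± 1.37 CPM in C57BL/6 plus zinc CD4 cells (log2 fold change -3.66, SE 0.42, adjusted p = 3.41e-06). S1pr1, the receptor that lets T cells leave lymphoid tissue, averaged 225 ± 178 CPM and 1440 ± 221 CPM in the same groups (-2.68, SE 0.40, adjusted p = 0.000212), a ratio of 0.157 that was 0.0861 without pMT-10 plus zinc CD4 replicate 2. In CD8 cells 2 of the 15 were higher and 3 lower against C57BL/6 plus zinc, led by Gpr183, a receptor for oxysterols that guides cells within lymphoid tissue, at 7.37 ± 0.625 CPM in pMT-10 plus zinc and 17.5 ± 3.79 CPM in C57BL/6 plus zinc (-1.25, SE 0.32, adjusted p = 0.0152). Against pMT-10 without zinc 2 were higher and 4 lower there. The shares of all genes in CD8 cells were 5.68% and 3.13% against C57BL/6 plus zinc, and 5.10% and 2.64% against pMT-10 without zinc.

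**Figure D4:**
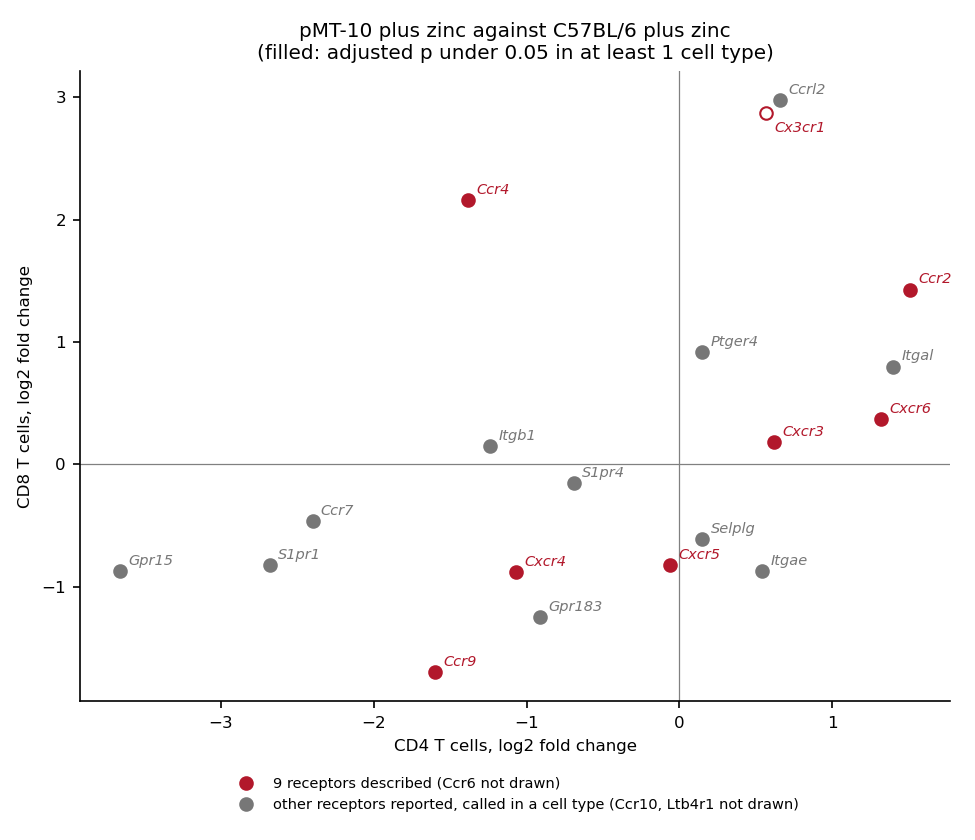
Log2 fold changes of pMT-10 plus zinc over C57BL/6 plus zinc, in CD4 cells (horizontal) and CD8 cells (vertical); red points are the receptor genes described, grey points are other chemokine, adhesion and egress receptors reported here that passed in at least 1 cell type, and filled points passed an adjusted p under 0.05 in at least 1. Ccr4 lies at -1.38 and 2.16, in the upper left, Ccr2 lies in the upper right, and Cxcr4 and Ccr9 lie in the lower left; Ccr6, Ccr10 and Ltb4r1 are not drawn because their CD8 counts were at or near 0.

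Downstream of these receptors, 23 genes of receptor signalling and desensitisation were tested. In CD4 cells 5 were higher and 4 lower in pMT-10 plus zinc against C57BL/6 plus zinc, and 6 higher and 3 lower against pMT-10 without zinc. The shares of all genes there were 9.29% and 9.40%, and 9.38% and 9.40%, in the same order. Rgs1, a regulator of G protein signalling that dampens responses to CXCL12, was higher in both cell types, at 196, 202 and 215 CPM in pMT-10 plus zinc CD4 cells, against 61.9 to 74.4 CPM in pMT-10 without zinc and 76.5 to 93.9 CPM in C57BL/6 plus zinc. In CD8 cells it was at 43.8 to 69.6 CPM in pMT-10 plus zinc, against 5.51 to 14.5 CPM in pMT-10 without zinc and 7.23 to 12.3 CPM in C57BL/6 plus zinc. Pik3r5, a regulatory subunit of the phosphoinositide 3-kinase that these receptors activate, was lower in CD4 cells at 62.1 ± 25.7 CPM in pMT-10 plus zinc, against 154 ± 8.08 CPM in C57BL/6 plus zinc (log2 fold change -1.31, SE 0.20, adjusted p = 6.73e-05). In CD8 cells 2 genes were higher (Rgs16, Rgs1) and 2 lower (Arrb1, Rgs10) against each control. The shares of all genes there were 5.68% and 3.13% against C57BL/6 plus zinc, and 5.10% and 2.64% against pMT-10 without zinc.

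Among 15 transcription factors known to act on homing receptor genes, 5 were higher and 2 lower in CD4 cells of pMT-10 plus zinc against C57BL/6 plus zinc. The shares of all genes there were 9.29% and 9.40%. Eomes, a T-box factor of effector cells, averaged 335 ± 46.9 CPM in pMT-10 plus zinc and 20.2 ± 8.33 CPM in C57BL/6 plus zinc (log2 fold change 4.05, SE 0.29, adjusted p = 1.42e-08). Klf2, which promotes S1pr1, averaged 248 ± 138 CPM and 823 ± 49.8 CPM in the same groups (-1.73, SE 0.25, adjusted p = 7.07e-05). In CD8 cells 4 were higher against either control, led by Prdm1, which encodes Blimp-1, at 38.7 ± 21.2 CPM in pMT-10 plus zinc and 2.18 ± 0.596 CPM in C57BL/6 plus zinc (4.13, SE 0.53, adjusted p = 8.56e-05). The CD8 log2 fold change of Klf2 was -0.46 (95% interval -0.94 to 0.03). Of all genes in CD8 cells, 5.68% were higher against C57BL/6 plus zinc and 5.10% against pMT-10 without zinc.

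In GENCODE M21 (GRCm38) Cxcr4 lies on chromosome 1 (128588199 to 128592293), Ccr6 on chromosome 17 (8236043 to 8257141) and Cxcr3 on chromosome X (101731535 to 101734269). The other 6 lie on chromosome 9, where Cxcr5 (44511787 to 44561877), Ccr4 (114490316 to 114504916) and Cx3cr1 (119901616 to 120069879) come before Ccr9 (123678439 to 123784330), Cxcr6 (123806475 to 123811760) and Ccr2 (124101950 to 124113557), and Ccr9, Cxcr6 and Ccr2 lie in the receptor cluster that also holds Xcr1, Ccr1 and Ccr3. In RefSeq the start site of Cxcr6 is 39.3 kb from that of Ccr9, and that of Ccr2 is 335.0 kb from it. The RefSeq start site of Ccr9, at 123767211, lies inside its GENCODE span, which begins at 123678439. Against C57BL/6 plus zinc, Ccr9 fell and Ccr2 rose in both cell types, and Cxcr6 rose in CD4 cells (log2 fold change 1.32) while its CD8 value was 0.37.

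**Figure D5:**
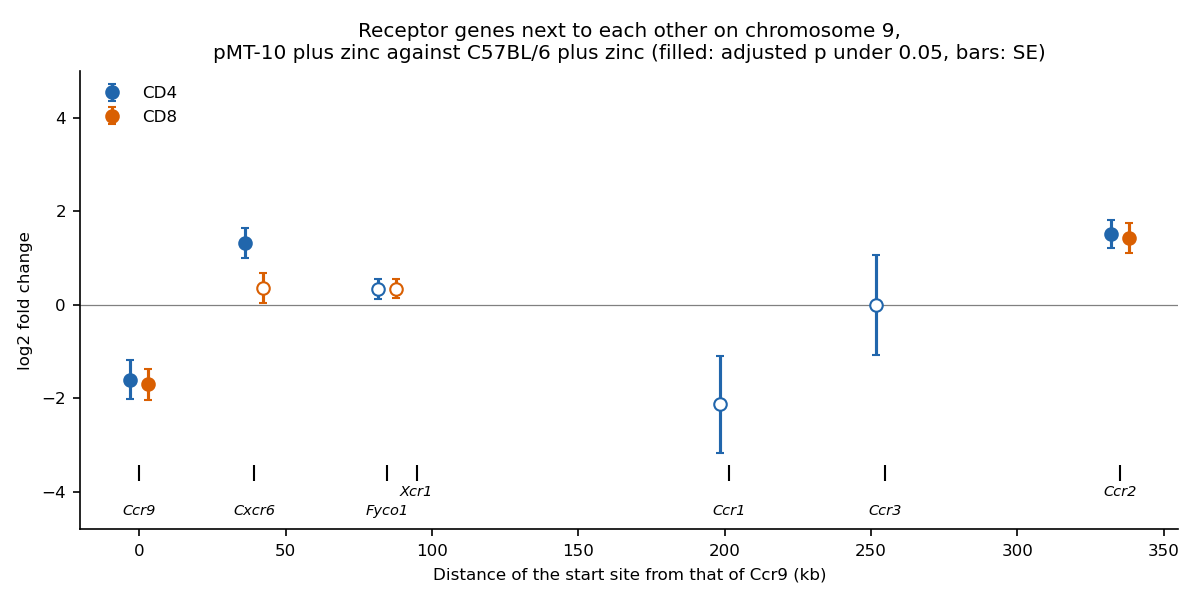
Log2 fold changes of pMT-10 plus zinc over C57BL/6 plus zinc against the distance of each gene's start site from that of Ccr9 in kb, for CD4 (blue) and CD8 (orange) cells, drawn slightly apart, with SE bars; filled points passed an adjusted p under 0.05. Start sites are RefSeq's for Ccr9, Cxcr6 and Ccr2 and GENCODE's for the other genes. Ccr9 lies below 0 in both cell types and Ccr2 lies above 0. Ccr1 and Ccr3 are drawn for CD4 cells alone, having 0 to 7 counts per CD8 library. Xcr1, which did not pass the count filter, is marked without a value.

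Genes with the most similar pattern were found from the 6 group means of log2(CPM + 0.5), centred per gene, by the root mean square distance. Nearest to Cxcr4 was Cpm, at a distance of 0.10, with 8.41 and 8.37 CPM in CD4 and CD8 cells of pMT-10 plus zinc, 22.5 and 24.2 CPM in pMT-10 without zinc, and 19.8 and 18.7 CPM in C57BL/6 plus zinc. The next was Apbb2 at 0.12. Nearest to Ccr9 were Art4 (0.25) and Cxxc5 (0.33), to Ccr2 Kctd17 (0.22) and Asb2 (0.23), and to Cxcr3 Susd3 (0.08) and Zbtb38 (0.11). For Ccr4 they were Lrrc32 and Tiam1 (0.40 each), and for Ccr6 Il2ra (0.31) and Lrrc32 (0.38). Il2ra, the interleukin-2 receptor alpha chain, was at 167, 463 and 151 CPM in pMT-10 plus zinc CD4 cells, so it too was highest in replicate 2. Nearest to Cxcr5 were Tmem220 (0.16) and Pter (0.17), to Cxcr6 Snx21 (0.16) and Prss16 (0.21), and to Cx3cr1 Dnmt3aos (0.08) and LOC108167649 (0.15). Apbb2 and the genes nearest to Cxcr5 and Cxcr6 averaged at most 3.03 CPM in any group, where the added 0.5 CPM shapes the pattern. The same holds for Lrrc32 in CD8 cells, at most 0.199 CPM, and for Art4 in pMT-10 plus zinc CD4 cells, at 0.96 CPM. It also holds for Ccr6 in CD8 cells, at most 1.03 CPM, and for Cx3cr1, at most 2.24 CPM.

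Ordered by group mean, Ccr2 ran from pMT-10 plus zinc CD4 cells at 175 CPM to pMT-10 without zinc CD8 cells at 4.91 CPM, and neighbouring groups overlapped only between the 2 controls of each cell type. Cxcr4 split into 4 control groups of 186 to 257 CPM, overlapping one another in order, and 2 pMT-10 plus zinc groups at 101 and 90.2 CPM that overlapped each other and no control. Ccr9 was highest in the 2 CD8 controls at 73.6 and 70.9 CPM, which overlapped, and lowest in pMT-10 plus zinc CD4 cells at 1.97 CPM. In order of Cxcr3, pMT-10 plus zinc CD4 cells came first at 373 CPM, apart from the rest, and pMT-10 without zinc CD8 cells last at 106 CPM, with overlap between neighbours among the middle 4 groups. Cxcr5 ran from C57BL/6 plus zinc CD4 cells at 86.8 CPM, overlapping pMT-10 plus zinc CD4 cells at 83.4 CPM, to pMT-10 plus zinc CD8 cells at 23.6 CPM, which stood apart. Cxcr6 was highest in the CD4 cells of the transgenic line, at 312 CPM with zinc and 285 CPM without, and its other 4 groups, at 125 to 170 CPM, overlapped in order. Ccr4 was highest in CD4 cells of pMT-10 without zinc, at 185 CPM, and its 3 CD8 groups, at 0.717 to 3.10 CPM, overlapped in order. Ccr6 overlapped in order among its 3 CD4 groups, at 51.9 to 116 CPM, all above the CD8 groups at 0 to 1.03 CPM, and Cx3cr1 ran from 2.24 CPM to 0.273 CPM with C57BL/6 plus zinc CD8 cells alone apart from the group before them.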

How the data were processed

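Gene counts of an Ion AmpliSeq Transcriptome Mouse Gene Expression panel were used as deposited by the authors, 1 table per sequencing chip. Per the labels' protocols, RNA came from CD4 and CD8 T cells that were sorted from marrow, and per the submitters' processing notes the build was mm10; neither aligner nor counter is named in the labels used. Groups follow the labels (3 libraries each). The series text states 3 mice per kind, and which CD4 and CD8 libraries share a mouse is not labelled.

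The counts were fitted with edgeR 4.0.16 (R 4.3.3; TMM, filterByExpr, robust quasi-likelihood, 1 mean per group over 18 libraries), with Benjamini-Hochberg adjustment over 11316 genes and a call at an adjusted p under 0.05. Intervals are 95% normal intervals of the log2 fold change, and mean CPM is given with its SD. CPM is scaled by the library total times its TMM factor. Replicates of a group differed beyond counting noise (chi-square per degree of freedom 15.9 to 65.3), so none were merged. A count of 0 over a group was taken to allow 3 counts, which covers counting error only. Alternatives were RLE size factors, library size only, no filter beyond 1 count, DESeq2 1.42.0, no robust estimation, a fit of the compared libraries' cell type or kind of mouse alone, and each replicate left out. The method was tested on simulated data.

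The 9 genes, the lists and the rule for similar genes (the 2 nearest per receptor, and at most 3 called genes per list and comparison, with some others given for their values) were chosen with earlier results of these data known. Promoter windows are RefSeq's for GRCm38.p6, and 31-base words come from GENCODE M21. Some genes of the lists are counted in them but are not reported by name here.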

Additional observations from a re-analysis of the deposited data

Results flagged for a closer look

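Ccr4 differed between the cell types in its response. The CD8 minus CD4 difference of the log2 fold changes of pMT-10 plus zinc was 3.54 against C57BL/6 plus zinc and 3.44 against pMT-10 without zinc, by edgeR's test of the difference itself. The gene was lower in CD4 cells, and its higher CD8 level rests on 2 of 3 libraries at 4.01 and 4.24 CPM.

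Cxcr5 differed between the cell types against pMT-10 without zinc, with a CD8 minus CD4 difference of -1.22. It was higher in CD4 cells, and its CD8 log2 fold change of -0.52 did not pass. Against C57BL/6 plus zinc the same difference was -0.77 (edgeR adjusted p = 0.0901) and did not pass.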

How the results depend on the processing

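No paired analysis was possible because the labels do not say which CD4 and CD8 libraries share a mouse, and different mice make up the groups compared within a cell type. Of 1037 values of the 9 genes recomputed under an alternative, 967 kept direction and side of the threshold, 39 lost a call, 11 gained one and 20 turned direction. With library size only, Cxcr6 in CD4 cells against pMT-10 without zinc was -0.02, and the median of all genes was -0.155 and -0.196 in CD4 cells against C57BL/6 plus zinc and pMT-10 without zinc (-0.047 and -0.05 in the reported fit), and 0.206 and 0.223 in the CD8 minus CD4 differences (0.047 each in the reported fit).

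With the CD8 libraries fitted alone, 3 of the 9 genes and 613 of all genes were called against C57BL/6 plus zinc (5 and 997 in the fit of all libraries) and 559 of all against pMT-10 without zinc (876). The CD8 minus CD4 differences get no value in such a fit. Between the controls, DESeq2 called 1 of the 9 and 33 of all genes in CD4 cells and 42 of all in CD8 cells, and no filter beyond 1 count gave 2 and 83 in CD4 and 1 and 107 in CD8 cells (0 and 16, 0 and 11 by the reported test). For the CD8 minus CD4 difference against C57BL/6 plus zinc, DESeq2 called 1030 genes and no filter 2 of the 9 and 1055 (621 reported), and against pMT-10 without zinc DESeq2 called 799 and no filter 4 of the 9 and 847 (428 reported). The cause was not tested.

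Leaving out 1 replicate at a time, the count of the 9 genes in CD8 cells ran from 3 to 5 against either control. All genes called ran from 1377 to 2160 in CD4 cells and 587 to 920 in CD8 cells against C57BL/6 plus zinc, from 1373 to 2103 and 565 to 755 against pMT-10 without zinc, and from 7 to 12 in CD4 cells between the controls. The CD8 minus CD4 counts ran from 255 to 837 and from 133 to 693, lowest without CD4 replicate 1 of pMT-10 plus zinc and highest without its replicate 2. Values that turned direction were all uncalled, and their ranges below are over all the alternatives, not only the replicates left out. In pMT-10 plus zinc against C57BL/6 plus zinc, Cxcr5 ran from -0.22 to 0.06 and Cx3cr1 from -0.23 to 0.99 in CD4 cells, and Cxcr6 from -0.06 to 0.71 and Ccr6 from -6.77 to 3.65 in CD8 cells. Against pMT-10 without zinc, Cxcr6 ran from -0.02 to 0.31 in CD4 cells and Ccr6 from 0.0 to 6.63 in CD8 cells. Between the controls in CD8 cells, Cxcr6 ran from -0.33 to 0.14 and Ccr9 from -0.24 to 0.13. Between CD8 and CD4 cells, Cx3cr1 ran from -0.51 to 1.11 in pMT-10 plus zinc, and Cxcr4 from -0.08 to 0.04 and Cxcr6 from -0.13 to 0.29 in C57BL/6 plus zinc. Depth limits Ccr6, Ccr4 and Cx3cr1 in CD8 cells, at 0 to 58 counts per library.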
